A study of Mus musculus with 20 samples.

Results

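The RNA of 9 genes for co-inhibitory receptors and ligands was followed in sorted mouse CD4+ T cells. The genes were Tigit, Cd96, Cd226, Lag3, Havcr2 (TIM-3), Btla, Cd200, Cd274 (PD-L1) and Pdcd1lg2 (PD-L2). They were taken by symbol, and all 9 were found among the 16740 genes counted in pooled spleen and peripheral lymph nodes (SpLN) and among the 16784 genes counted in mesenteric lymph nodes (mLN). All 9 entered the test in both tissues.

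The cells came from C57BL/6 mice of 14 weeks. DKO mice were Tet2/3 fl/fl Foxp3Cre, in which a YFP-Cre fusion made from the Foxp3 gene deletes floxed Tet2 and Tet3 in cells that express Foxp3. The control mice, called WT, carried the same Foxp3Cre allele without floxed Tet genes, so Cre and YFP were present in both genotypes. CD4+YFP+ cells were sorted as Treg cells and CD4+YFP- cells as CD4+Foxp3- cells, which gave 4 groups with 2 replicates each in SpLN and 3 replicates each in mLN. In DKO mice the CD4+YFP- gate can hold both cells that expressed Foxp3 earlier, and deleted the Tet genes then, and cells that never did. The 2 DKO mice used for SpLN were littermates, 1 of them with a more severely enlarged spleen, and the labels do not say which replicate that was.

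Co-inhibitory receptors are surface proteins that dampen T cell activation when they meet ligands on other cells. TIGIT, CD96 and CD226 bind overlapping ligands of the nectin family, among them CD155 (Pvr), and there TIGIT inhibits while CD226 co-stimulates. LAG-3 binds MHC class II, TIM-3 has galectin-9 among its ligands, BTLA binds HVEM (Tnfrsf14), CD200 is a ligand of the inhibitory receptor CD200R1, and PD-L1 and PD-L2 are both ligands of PD-1 (Pdcd1). Treg cells are known to carry several of these receptors, and effector and chronically stimulated T cells gain them.

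Libraries held 13525932 to 15253141 counted reads in SpLN and 9998478 to 15449158 in mLN, and the biological coefficient of variation was 21.6% and 17.7%. Foxp3 lay between 153 and 419 CPM (counts scaled to a common library total) in every Treg library and between 0.211 and 2.75 CPM in every CD4+Foxp3- library, and the 6 T cell marker genes in the tables, of 7 listed, summed to 3843 to 6429 CPM. Tet3 RNA was still counted in mLN DKO Treg cells, at 48.4 to 73.3 CPM against 69.0 to 86.5 CPM in WT, but the counts cover undeleted exons too, so they check nothing about the deletion. In SpLN Treg cells Tet3 was at 38.1 to 61.0 CPM in DKO against 30.6 to 31.0 CPM in WT, and Tet2 at 2.05 to 8.01 against 1.11 to 2.08 CPM, so the mean of neither was lower in DKO. The DKO CD4+Foxp3- libraries of each tissue lay far from each other. Over the log2 CPM of the 500 most variable genes, those of mLN were at a mean distance of 40.9 to 50.8 from the others of their group, against 14.1 to 15.2 in WT, and the pair in SpLN was 55.9 apart, against 17.7 in WT. The DKO Treg libraries were spread too, at 35.2 to 37.2 against 12.8 to 13.3 in mLN and 27.5 against 14.8 in SpLN. Replicate 1 in SpLN and replicate 2 in mLN had the highest Lag3, Tigit, Cd200 and Btla and the lowest Cd96 and Cd226 of these groups, with Foxp3 at 0.251 and 0.211 CPM, so the results by genotype in CD4+Foxp3- cells are also given without them.

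Levels are CPM after TMM scaling of the library sizes, which compares 1 gene between libraries. Levels of different genes are compared only in the deposited TPM (transcript levels scaled by gene length, with the same total in each library). Differences between groups are log2 fold changes with their standard error (SE) from edgeR's quasi-likelihood test, with p adjusted over all genes tested (Benjamini-Hochberg). The 4 groups of a tissue share 1 estimate of each gene's spread. The SE of a comparison within WT therefore also holds the spread of the DKO libraries, and a WT difference without a call is not shown to be absent. To be called changed, a gene needed an adjusted p no higher than 0.05 together with at least a 1.5-fold difference. The samples were bulk RNA, so fewer cells with a transcript and less of it per cell cannot be told apart.

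**Figure D1:**
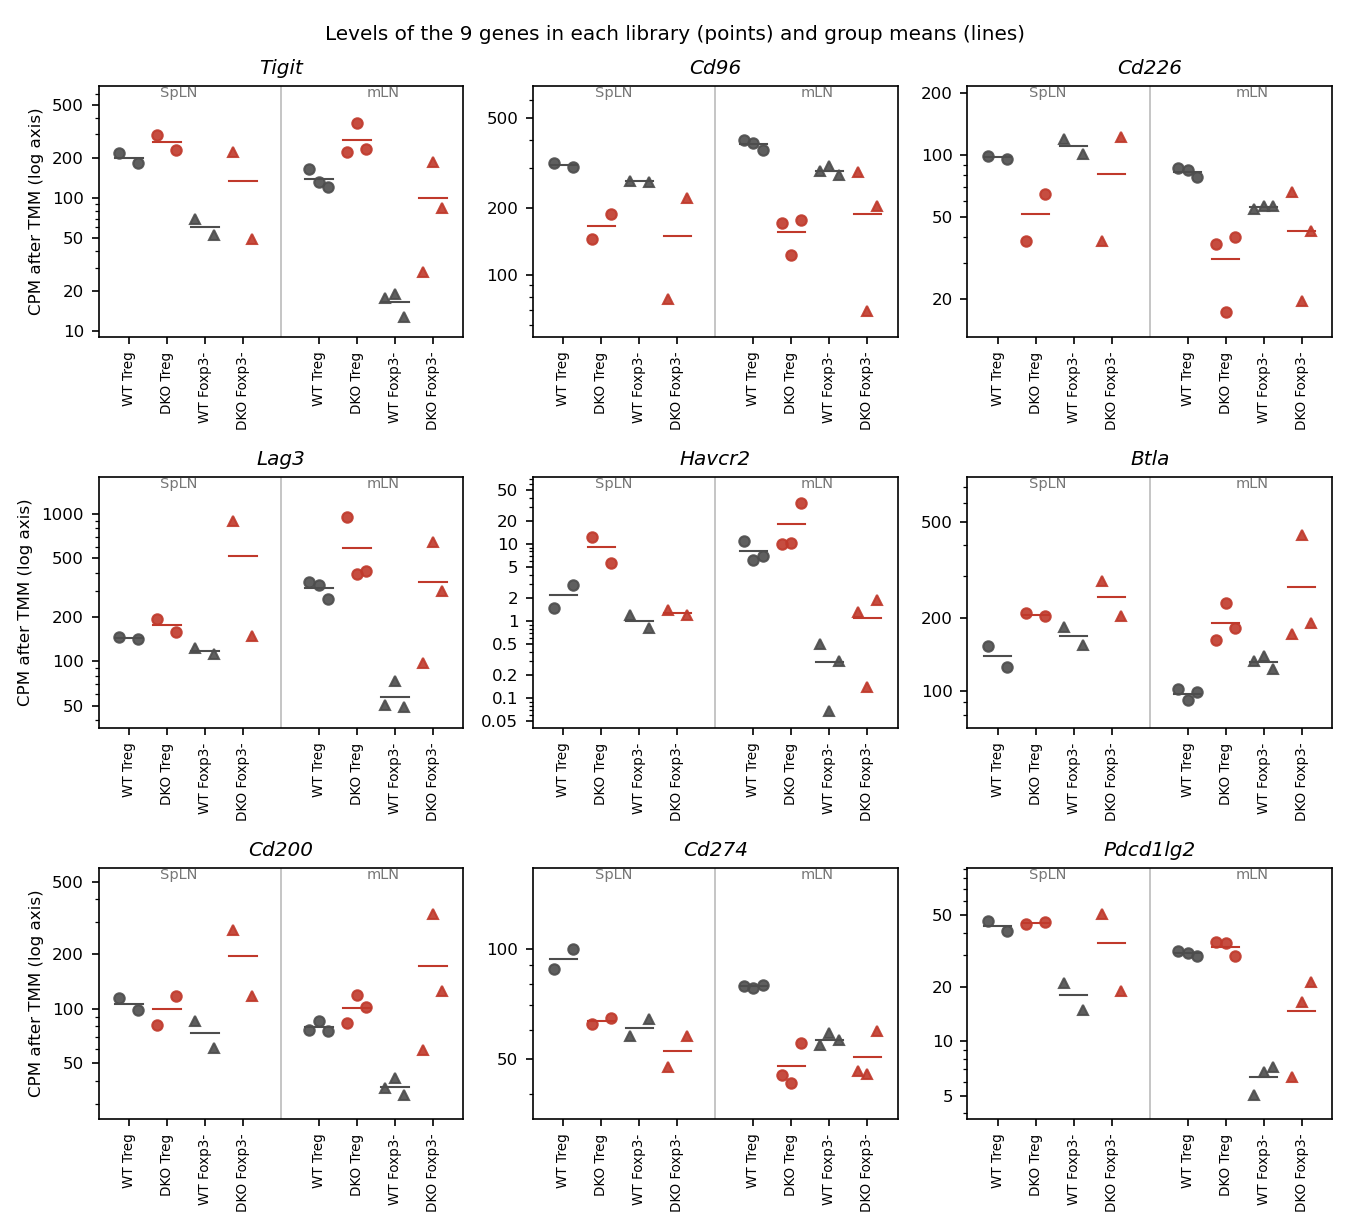
Level of each of the 9 genes in all 20 libraries, in CPM after TMM scaling on a log axis. Circles are Treg cells, triangles CD4+Foxp3- cells, grey WT, red DKO, and lines the group means. In mLN Treg cells Cd96, Cd226 and Cd274 lay lower in all 3 DKO libraries than in any WT library, and Btla, Lag3 and Tigit higher. Lag3 and Tigit were not called there, and the share of all genes that lay apart in this way was not counted.

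The receptors for nectin ligands are shown first, since 2 of the 3 changed in DKO Treg cells of mLN. In mm9, Tigit lies at chr16:43648974-43664297 and Cd96 at chr16:46035770-46120364, both on the minus strand of the same chromosome. Since TET proteins oxidise methylated cytosine in CG pairs, the 250 bases before the start of these 2 genes, whose DKO Treg levels lay on opposite sides of WT, are printed, from RefSeq on GRCm38.p6, 5′ to 3′ along the gene, with every CG in capitals. The Tigit stretch is chr16:43664185-43664434, minus strand, with 5 CG, and the Cd96 stretch is chr16:46120249-46120498, minus strand, with 3 CG.
Tigit: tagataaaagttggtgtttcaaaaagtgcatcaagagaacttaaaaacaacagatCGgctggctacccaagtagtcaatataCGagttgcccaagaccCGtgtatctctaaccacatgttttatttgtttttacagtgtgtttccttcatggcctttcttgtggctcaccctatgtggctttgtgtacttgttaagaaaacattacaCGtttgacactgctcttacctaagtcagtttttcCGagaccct
Cd96: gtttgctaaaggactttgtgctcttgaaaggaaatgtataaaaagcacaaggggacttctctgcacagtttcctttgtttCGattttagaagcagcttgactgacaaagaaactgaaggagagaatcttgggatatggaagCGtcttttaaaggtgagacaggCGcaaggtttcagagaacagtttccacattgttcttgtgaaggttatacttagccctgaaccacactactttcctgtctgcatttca
Of the 32817 promoters in the RefSeq table, 55.6% held at least 5 CG in these 250 bases and 70.9% at least 3, with a median of 6. Methylation was not measured in these files, so the counts describe the sequence only.

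In mLN Treg cells the DKO mice had less Cd96 and less Cd226 RNA than WT mice. Cd96, a receptor of nectin ligands, was at 399, 388 and 362 CPM in WT Treg cells and at 169.9, 122 and 176 CPM in DKO Treg cells. All 3 DKO libraries lay below every WT library, and Cd96 fell by 1.30 on the log2 scale (SE 0.34, adjusted p = 0.0178). Cd226, the co-stimulatory partner of TIGIT, was at 86.4, 85.2 and 78.3 CPM in WT and at 37.0, 17.2 and 39.8 CPM in DKO Treg cells, again without overlap, and fell by 1.41 (SE 0.35, adjusted p = 0.0132). The Cd226 call held under each of the 11 alternatives run, while the Cd96 call was lost in 4 of them, with an adjusted p of 0.0706 without replicate 2 of the DKO Treg cells, 0.0549 without WT Treg replicate 1, 0.0524 without WT Treg replicate 2, and 0.0573 with edgeR's robust prior.

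Tigit stood higher in mLN DKO Treg cells but did not pass the test there. It was at 164, 131 and 121 CPM in mLN WT Treg cells and at 221, 366 and 232 CPM in DKO Treg cells. The groups did not overlap, with a log2 difference of 0.98 (SE 0.45, adjusted p = 0.152). In CD4+Foxp3- cells of mLN, where WT levels were far lower, Tigit was at 17.6, 19.0 and 12.9 CPM in WT and at 27.9, 187 and 83.3 CPM in DKO. Every DKO library was above every WT library and Tigit was called, 6.02-fold higher (log2 2.59, SE 0.49, adjusted p = 0.0152). The 3 DKO libraries spread over a wide range, with a mean of 99.6 ± 81.0 CPM (SD, n = 3), and without DKO replicate 2 the log2 difference was 1.75 (adjusted p = 0.0111).

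Cd96 and Cd226 did not pass the test in mLN CD4+Foxp3- cells. Cd96 was at 292, 306 and 279 CPM in WT and at 287, 69.5 and 203 CPM in DKO, a log2 difference of -0.65 (SE 0.34, adjusted p = 0.325), with overlap. Cd226 was at 54.6, 56.7 and 56.6 CPM in WT and at 66.2, 19.5 and 42.5 CPM in DKO, a log2 difference of -0.40 (SE 0.34, adjusted p = 0.595). The replicate with the lowest Cd96 and Cd226, replicate 2, was also the one with the highest Tigit. Without it the log2 differences were -0.24 for Cd96 (adjusted p = 0.602) and -0.03 for Cd226. Without DKO replicate 1, Cd96 was called lower (-1.10, adjusted p = 0.0331).

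Per length of gene, the share of TIGIT-coding RNA among the 3 receptors was larger in DKO Treg cells of both tissues. Tigit made up 44.0, 39.1 and 38.8% of the summed TPM of Tigit, Cd96 and Cd226 in mLN WT Treg cells, and 71.3, 85.8 and 71.4% in mLN DKO Treg cells. In SpLN Treg cells the share was 54.7 and 51.6% in WT and 79.1 and 68.1% in DKO. The TPM ratio of Tigit to Cd226 was 4.91, 3.97 and 3.98 in mLN WT Treg cells against 15.4, 54.7 and 15.0 in DKO, and 5.59 and 4.93 against 20.1 and 9.11 in SpLN. In none of these did WT and DKO libraries overlap. In CD4+Foxp3- cells of mLN Tigit held 10.5, 10.8 and 8.15% in WT and 15.5, 83.1 and 44.0% in DKO. In SpLN CD4+Foxp3- cells the shares were 30.0 and 25.4% in WT and 81.7 and 25.3% in DKO, so there 1 DKO library was far above and the other within 1 percentage point of the lower WT library. No test was run on these shares.

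**Figure D2:**
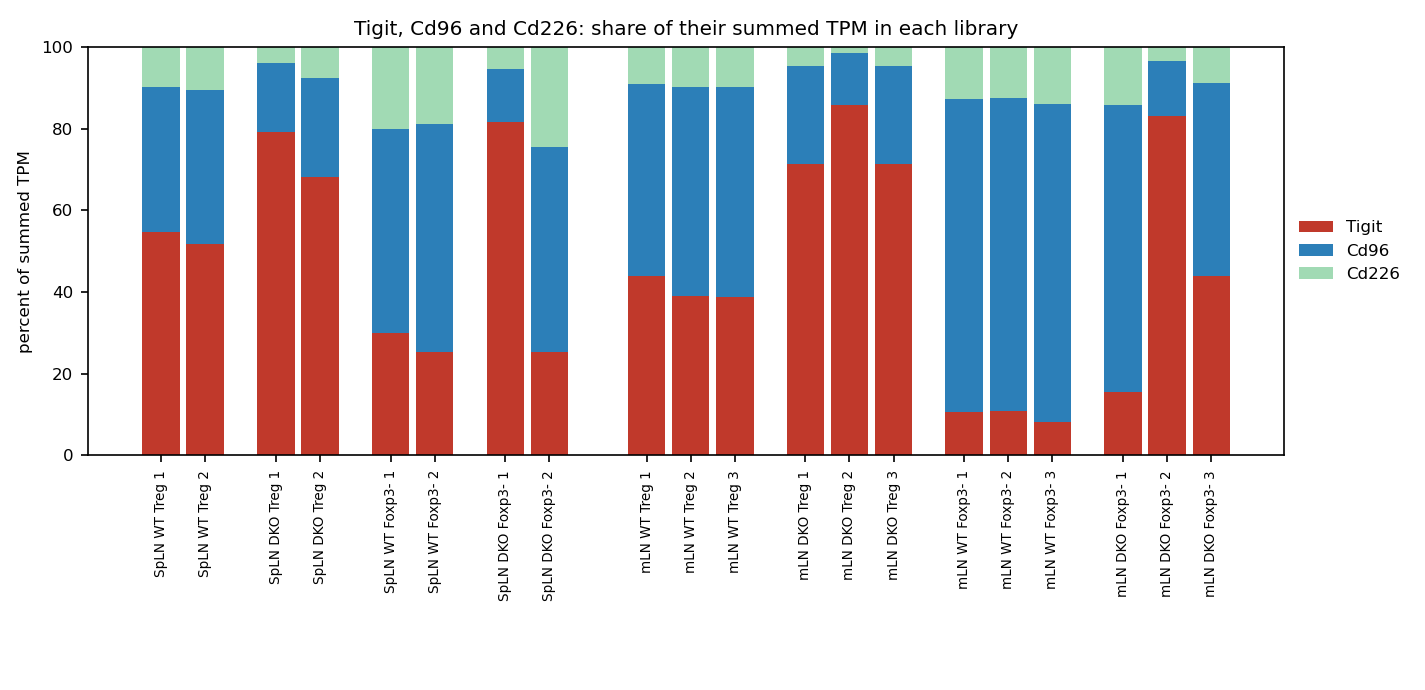
Share of Tigit, Cd96 and Cd226 in their summed TPM (percent) in each of the 20 libraries, with SpLN left and mLN right. Tigit took 68.1 to 85.8% in the 5 DKO Treg libraries and 38.8 to 54.7% in the 5 WT Treg libraries.

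Lag3, an inhibitory receptor for MHC class II (mm9 chr6:124854379-124861723, minus strand), was called in mLN CD4+Foxp3- cells. It was at 50.6, 73.3 and 49.3 CPM in WT and at 97.9, 642 and 300.3 CPM in DKO CD4+Foxp3- cells. Each DKO library was above each WT library, and Lag3 was 6.00-fold higher (log2 2.58, SE 0.53, adjusted p = 0.0194), or 1.79 on the log2 scale without DKO replicate 2 (adjusted p = 0.0257). Treg cells of mLN held Lag3 at 347, 332 and 264 CPM in WT and at 961, 391 and 407 CPM in DKO, without overlap but with 1 DKO library far above the other 2. The log2 difference there was 0.90 (SE 0.50, adjusted p = 0.235). Replicate 1, with the highest Lag3 among the DKO Treg libraries, was the lowest for Lag3 among the DKO CD4+Foxp3- libraries.

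Havcr2, which codes for TIM-3 (mm9 chr11:46268437-46294757, plus strand), was the member with the lowest level in every group. Its level in mLN Treg cells was 10.9, 6.12 and 6.98 CPM in WT against 10.01, 10.3 and 33.9 CPM in DKO. The groups overlapped, and the log2 difference of 1.17 (SE 0.55, adjusted p = 0.163) rested on the third DKO library. In mLN CD4+Foxp3- cells it was counted with only 6, 1 and 3 reads in WT and 15, 2 and 21 reads in DKO. A level of 3 reads is the floor used here (0.203 to 0.299 CPM over the mLN libraries), and 2 WT libraries and 1 DKO library were at or under it. The difference between genotypes did not pass the test (log2 1.91, SE 0.96, adjusted p = 0.311). It was 2.50 without DKO replicate 2 (adjusted p = 0.202) and 1.29 without DKO replicate 3 (adjusted p = 0.576).

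Btla, the receptor of HVEM (mm9 chr16:45224428-45253008, plus strand), was called in mLN Treg cells. It was at 102, 91.5 and 99.3 CPM in WT and at 163, 231 and 182 CPM in DKO Treg cells. All DKO libraries were above all WT libraries, with a 1.97-fold higher level (log2 0.98, SE 0.28, adjusted p = 0.0247). Btla in CD4+Foxp3- cells was at 133, 139.7 and 123 CPM in WT and at 172, 443 and 192 CPM in DKO, a difference of similar size without overlap that just missed the threshold (log2 1.03, SE 0.27, adjusted p = 0.0563). Without DKO replicate 2 this was 0.47 (SE 0.12, adjusted p = 0.0497), below 1.5-fold, while it was called by DESeq2's Wald test on all libraries (1.03, adjusted p = 0.00651), and by edgeR without DKO replicate 1 (1.27, adjusted p = 0.00458) and without DKO replicate 3 (1.22, adjusted p = 0.0344). The Treg call was lost in 5 of the 11 alternatives, with an adjusted p of 0.0924 without DKO Treg replicate 2, 0.0701, 0.0871 and 0.0769 without WT Treg replicates 1, 2 and 3, and 0.0645 with the robust prior.

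Cd200 lies 129 kb from Btla on the same chromosome (mm9 chr16:45382248-45409166, minus strand) and showed another pattern. CD200 is a ligand that restrains cells bearing CD200R1. Its RNA was at 36.6, 41.4 and 33.3 CPM in mLN WT CD4+Foxp3- cells and at 59.4, 332 and 126 CPM in DKO CD4+Foxp3- cells. The groups did not overlap and Cd200 was called, 4.64-fold higher (log2 2.22, SE 0.43, adjusted p = 0.0167). Without DKO replicate 2 the log2 difference was 1.32 (adjusted p = 0.00463). Treg cells of mLN overlapped, at 76.8, 85.8 and 75.5 CPM in WT against 83.3, 119 and 102 CPM in DKO (log2 0.35, SE 0.41, adjusted p = 0.584).

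The ligands of PD-1 are neighbours, with Cd274 at mm9 chr19:29441945-29462585 and Pdcd1lg2 at chr19:29485409-29545647, both on the plus strand and 22.8 kb apart. Their upstream sequences are printed because the genes behaved differently in the same cells. The 250 bases before each start, from RefSeq on GRCm38.p6 with CG in capitals, are chr19:29367188-29367437 for Cd274, with 11 CG (35.5% of promoters held at least as many), and chr19:29410669-29410918 for Pdcd1lg2, with 3 CG.
Cd274: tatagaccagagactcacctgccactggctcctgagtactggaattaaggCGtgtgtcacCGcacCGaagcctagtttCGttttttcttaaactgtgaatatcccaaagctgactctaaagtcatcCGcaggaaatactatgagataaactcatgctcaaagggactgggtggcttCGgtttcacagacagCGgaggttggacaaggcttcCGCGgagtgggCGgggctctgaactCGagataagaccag
Pdcd1lg2: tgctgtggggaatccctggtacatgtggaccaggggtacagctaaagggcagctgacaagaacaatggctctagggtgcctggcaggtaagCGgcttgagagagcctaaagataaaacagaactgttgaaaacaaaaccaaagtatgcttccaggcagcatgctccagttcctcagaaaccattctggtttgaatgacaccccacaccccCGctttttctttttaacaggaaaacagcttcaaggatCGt
The CG pairs of the Cd274 stretch are spread over its length and 2 of them adjoin near the start of the gene.

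Cd274 (PD-L1) RNA was lower in DKO Treg cells of mLN, with little spread between replicates. It was at 78.9, 78.1 and 79.6 CPM in WT and at 45.1, 42.9 and 55.1 CPM in DKO Treg cells. No library overlapped, and Cd274 fell by 0.73 on the log2 scale (SE 0.11, adjusted p = 0.00111), a 1.65-fold change that was called in each of the 11 alternatives run. In mLN CD4+Foxp3- cells it was at 54.4, 58.7 and 56.4 CPM in WT and at 46.4, 45.5 and 59.6 CPM in DKO, with overlap (log2 -0.16, SE 0.11, adjusted p = 0.487, and -0.08 without DKO replicate 2).

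Pdcd1lg2 (PD-L2) did not follow Cd274. In mLN Treg cells it was at 31.6, 30.8 and 29.9 CPM in WT and at 35.7, 35.0 and 29.6 CPM in DKO, with overlap (log2 0.12, SE 0.28, adjusted p = 0.818). Its CD4+Foxp3- levels were 5.02, 6.75 and 7.18 CPM in WT against 6.39, 16.5 and 21.5 CPM in DKO. It was called there, 2.34-fold higher (log2 1.23, SE 0.31, adjusted p = 0.0479), although the lowest DKO library lay within the WT range. This was the least stable call among the 9 genes, lost in 8 of 11 alternatives, with an adjusted p of 0.0827 without DKO replicate 2, 0.126 without DKO replicate 3, and 0.187, 0.139 and 0.118 without WT replicates 1, 2 and 3. Per length, the TPM ratio of Cd274 to Pdcd1lg2 was 2.35, 2.38 and 2.50 in mLN WT Treg cells and 1.19, 1.15 and 1.75 in DKO Treg cells, without overlap.

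In all, 1 of the 9 genes (Btla) was called higher and 3 (Cd96, Cd226 and Cd274) were called lower in mLN DKO Treg cells, where 8.5% of all genes tested were called higher and 3.43% lower. The median log2 difference of the 9 was 0.35, and that of all genes 0.0045. In mLN CD4+Foxp3- cells 4 of the 9 (Lag3, Tigit, Cd200 and Pdcd1lg2) were called higher and 0 lower, where 3.12% of all genes were called higher and 0.304% lower. The median of the 9 there was 1.23, and that of all genes 0. Both comparisons come from 1 fit of 4 groups. The 9 genes were chosen with earlier results of these data known, so the values of all genes beside them make no independent test. Without DKO replicate 2 of the CD4+Foxp3- cells 3 of the 9 were called higher, where 2.22% of all genes were. Lag3, Tigit and Cd200 stayed called there, but each lost its call with the robust prior and when any 1 of the 3 WT replicates was left out, the latter with adjusted p of 0.0763 to 0.106 for Lag3, 0.0745 to 0.0814 for Tigit and 0.0758 to 0.0885 for Cd200.

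**Figure D3:**
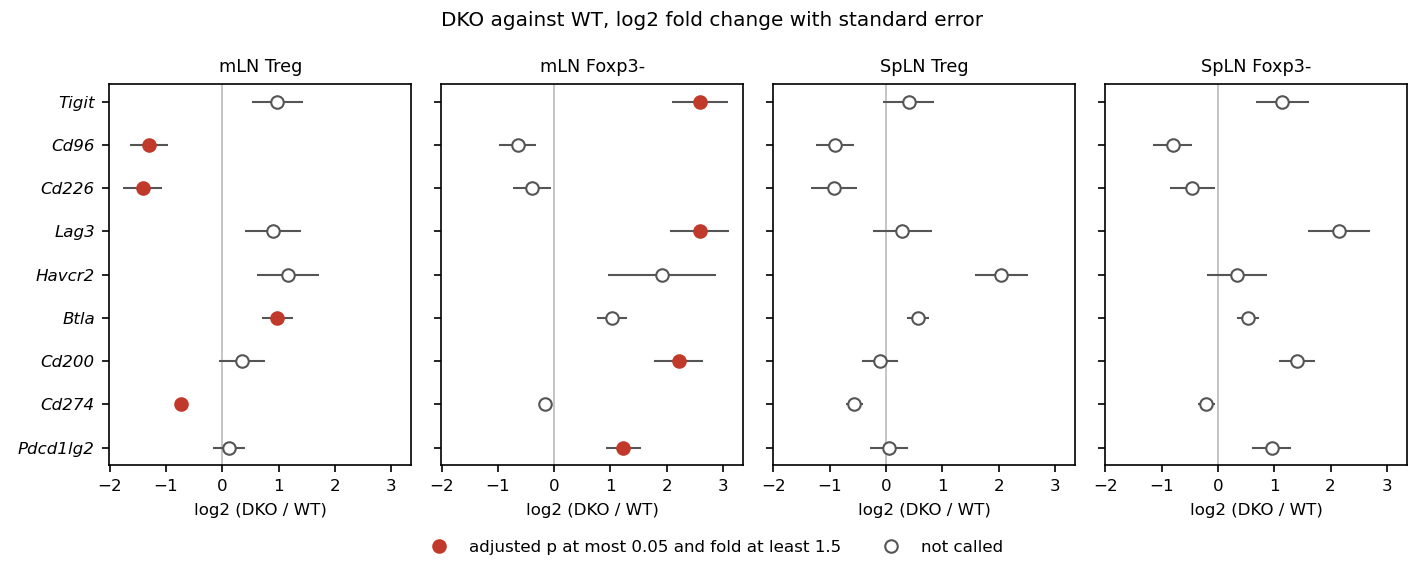
Log2 fold change of DKO against WT with its standard error for the 9 genes, in mLN and SpLN Treg and CD4+Foxp3- cells. Filled points are called (adjusted p up to 0.05, at least 1.5-fold), and open points are not; edgeR called 4 genes in each cell type of mLN and 0 in SpLN, while DESeq2 also called Btla in mLN CD4+Foxp3- cells, Havcr2 in SpLN Treg cells and Cd200 in SpLN CD4+Foxp3- cells.

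Marker genes of other cell types moved with genotype in the same libraries. Within mLN Treg cells the 11 monocyte and macrophage markers summed to 3.89 to 6.33 CPM in WT, where Cd14 and Adgre1 were at 0, and to 16.8 to 58.4 CPM in DKO. The 5 NK cell markers in the table, of 6 listed, summed to 13.0 to 15.0 CPM in WT against 81.7 to 166 CPM in DKO Treg cells, most of it Klrb1c, and the 2 CD8 markers to 16.0 to 20.8 and 2.95 to 3.94 CPM. In CD4+Foxp3- cells the monocyte and macrophage sums were 9.11 to 10.7 CPM in WT against 10.7 to 29.9 CPM in DKO, and the NK sums 34.0 to 43.4 and 59.4 to 144 CPM, while the CD8 sums were 21.5 to 23.3 against 4.996 to 10.1 CPM. The 5 Treg markers in CD4+Foxp3- cells summed to 133 to 137 CPM in WT and to 177, 348 and 249 CPM in DKO, the same order of the 3 replicates as for Tigit, Lag3 and Cd200, although Foxp3 itself was at 2.75, 0.211 and 1.33 CPM. The gene of this list with the highest mean there was Ctla4 in DKO (44.0 to 148 CPM) and Tnfrsf18 in WT (61.4 to 66.5 CPM). In Treg cells the 5 Treg markers summed to 1878 to 2040 CPM in WT against 1480 to 1679 CPM in DKO, without overlap. The plasma cell sum reached 573 and 653 CPM in replicate 2 of the mLN DKO Treg and CD4+Foxp3- cells, led by Jchain, against at most 123 CPM in the other mLN libraries. The 8 B cell markers summed to 5.69 to 6.82 CPM in WT against 9.67, 20.8 and 21.3 CPM in DKO CD4+Foxp3- cells, the same order of the 3 replicates as for Pdcd1lg2, and to 31.7 to 40.4 against 42.5, 39.0 and 104 CPM in Treg cells. The 7 dendritic cell markers in the table, of 8 listed, summed to 2.71 to 3.25 CPM in WT against 4.19 to 10.3 CPM in DKO Treg cells, and to 2.89 to 3.39 against 2.30 to 2.81 CPM in CD4+Foxp3- cells. Their part in the levels of the 9 genes was not tested.

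The difference of the DKO effect between the cell types was itself tested by an interaction term. A gene passed this test at an adjusted p no higher than 0.05, with no minimum fold. In mLN 0 of the 9 genes passed with edgeR, where 0.28% of all genes passed in either direction. At an unadjusted p under 0.05 there were 5 of the 9 and 10.9% of all genes, and DESeq2's Wald test also called 0. The log2 difference of the 2 effects was -1.86 for Cd200 (SE 0.59, adjusted p = 0.227), -1.69 for Lag3 (SE 0.71, adjusted p = 0.403), -1.61 for Tigit (SE 0.66, adjusted p = 0.378), and -0.56 for Cd274 (SE 0.16, adjusted p = 0.175). In this fit the calls in 1 cell type and not in the other are not shown to differ. With the replicate number as a block within genotype Cd274 passed (-0.56, adjusted p = 0.0364), though at less than 1.5-fold. It was the 1 of the 9 to do so, and 118 genes instead of 47 did. Without DKO CD4+Foxp3- replicate 1, Tigit (-2.08, adjusted p = 0.0250), Cd200 (-2.30, adjusted p = 0.0116) and Pdcd1lg2 (-1.49, adjusted p = 0.00449) passed, where 1.4% of all genes did. Without replicate 2, Cd96 (-1.07, adjusted p = 0.0119), Cd226 (-1.40, adjusted p = 0.0339) and Cd274 (-0.67, adjusted p = 0.0328) passed instead, where 2.77% did.

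Treg cells and CD4+Foxp3- cells of WT mice differed in 4 of the 9 genes in mLN, all higher in Treg cells, where 6.91% of all genes were called higher and 3.14% lower. From the levels given above, Havcr2 (log2 4.80, SE 0.81, adjusted p = 0.00144), Tigit (3.06, SE 0.50, adjusted p = 0.00117), Lag3 (2.44, SE 0.53, adjusted p = 0.00732) and Pdcd1lg2 (2.28, SE 0.31, adjusted p = 0.000326) were called, in each of the 11 alternatives too. Havcr2 rests on 6, 1 and 3 reads in CD4+Foxp3- cells, and without WT CD4+Foxp3- replicate 1 its log2 difference was 5.53 (adjusted p = 0.00658), and without replicate 2 it was 4.25 (adjusted p = 0.0121). Cd274 was higher in Treg cells at an adjusted p of 0.0120 but by less than 1.5-fold (log2 0.48, SE 0.11). Cd96 (0.39), Cd226 (0.57) and Cd200 (1.09, SE 0.43, adjusted p = 0.109) were above CD4+Foxp3- cells in all libraries, and Btla (-0.44, SE 0.27, adjusted p = 0.350) below in all, without a call. With the replicate number as a block, Cd200 was called as well (1.10, adjusted p = 0.0312), and Cd226 reached an adjusted p of 0.0152 but not 1.5-fold (0.57).

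In DKO mice 3 of these differences were called in mLN, where 7.75% of all genes were called higher and 3.49% lower in Treg cells. Havcr2 was higher by 4.06 (SE 0.67, adjusted p = 0.00110), Pdcd1lg2 by 1.18 (SE 0.29, adjusted p = 0.0134) and Tigit by 1.45 (SE 0.46, adjusted p = 0.0432). Lag3, at 0.76 (SE 0.50, adjusted p = 0.342), overlapped between the cell types. The other 5 genes overlapped as well, with log2 differences from -0.77 (Cd200, SE 0.41, adjusted p = 0.232) to -0.08 (Cd274, SE 0.11, adjusted p = 0.670). The median of the 9 genes was 1.09 in WT and -0.08 in DKO, and the 2 comparisons share no library. Without DKO CD4+Foxp3- replicate 2, 6 of the 9 were called in DKO mice, 4 higher (those 3 and Lag3, 1.53) and 2 lower (Cd96, -0.68, and Cd226, -0.83) in Treg cells, where 11.2% of all genes were called higher and 6.32% lower (2934 genes against 1885 with all libraries), and Tigit was at 2.27 (adjusted p = 0.000150). The Tigit call was lost without DKO CD4+Foxp3- replicate 3 (adjusted p = 0.128) and without DKO Treg replicate 1, 2 or 3 (0.0537, 0.143 and 0.0587), and with the robust prior (0.116). With the replicate number as a block within genotype, the Tigit call was kept (1.76, SE 0.31, adjusted p = 0.00481). Cd200 was called lower in Treg cells without DKO CD4+Foxp3- replicate 1 (-1.20, adjusted p = 0.00982). Havcr2 was at 3.23 without DKO Treg replicate 3, and at 3.45 and 4.69 without DKO CD4+Foxp3- replicates 2 and 3, called in each.

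**Figure D4:**
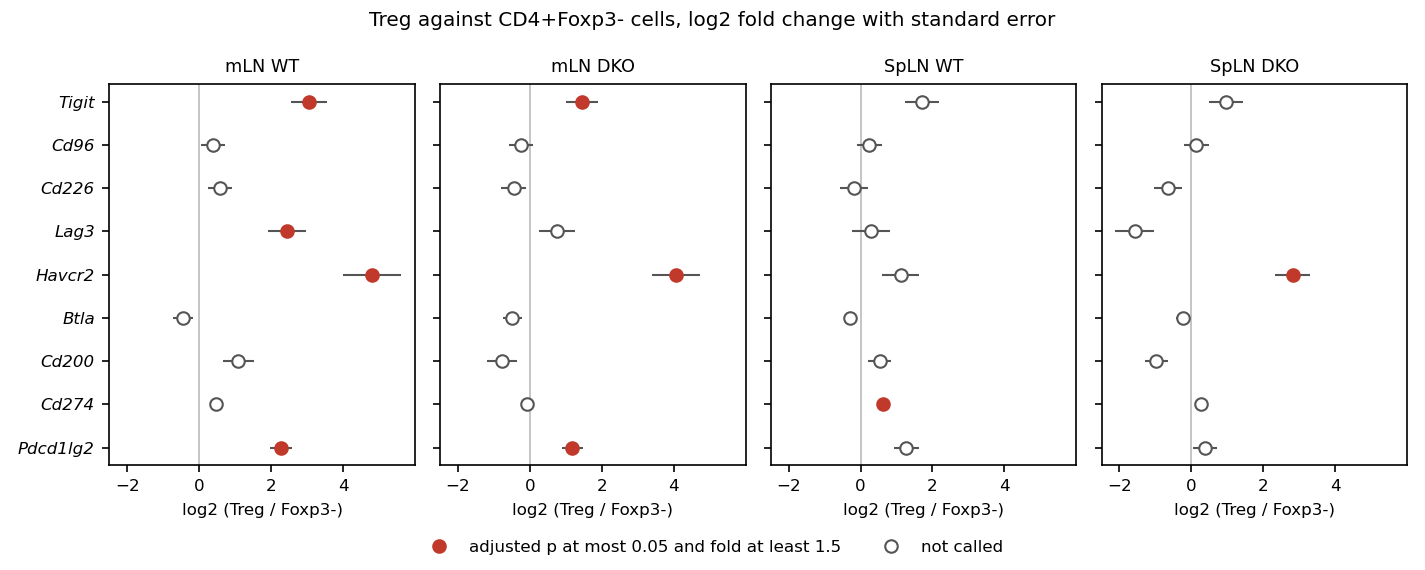
Log2 fold change of Treg cells against CD4+Foxp3- cells of the same genotype with its standard error, for the 9 genes in mLN and SpLN. Filled points are called, namely Tigit, Lag3, Havcr2 and Pdcd1lg2 in mLN WT, Tigit, Havcr2 and Pdcd1lg2 in mLN DKO, Cd274 in SpLN WT and Havcr2 in SpLN DKO.

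The order of the 9 genes by TPM, which compares genes per length, shows which of them carried most RNA. In mLN WT Treg cells Cd96 was first (320.1 ± 7.76 TPM, SD, n = 3), followed by Lag3 (286 ± 33.4) and Tigit (262 ± 34.6), which overlapped each other. Cd200 (61.7) and Cd226 (61.1) overlapped, Btla (55.0), Cd274 (39.6) and Pdcd1lg2 (16.4) followed, and Havcr2 was last at 5.34 TPM. In mLN DKO Treg cells Lag3 (611 ± 361) and Tigit (581 ± 154) came first and overlapped, and Cd96 (148 ± 30.9) and Btla (122 ± 18.7) came next and overlapped. In mLN WT CD4+Foxp3- cells the order was led by Cd96 (225 ± 12.7) and Btla (68.4 ± 4.81), with Tigit at 28.7 and Lag3 at 48.4 TPM. By mean it was led in mLN DKO CD4+Foxp3- cells by Lag3 (312 ± 252) and Tigit (186 ± 154), but down to rank 6 each gene overlapped the next. In DKO replicate 1 Cd96 (215 TPM) was above Lag3 (79.7) and Tigit (47.3), and in replicate 3 Cd96 (170 TPM) was above Tigit (159). In SpLN WT Treg cells Tigit was first (303 TPM), then Cd96 (209) and Lag3 (105), with none of these overlapping.

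In SpLN, with 2 replicates a group, 0 of the 9 genes were called between genotypes in Treg cells by edgeR, where 1.14% of all genes were called higher and 0.605% lower. At an unadjusted p under 0.05 there were 5 of the 9 and 20.4% of all genes, and DESeq2's Wald test called 1, Havcr2 (adjusted p = 0.0198). Cd96 stood at 317 and 303 CPM in WT against 144 and 186 CPM in DKO Treg cells, and both DKO libraries were below both WT libraries (log2 -0.91, SE 0.34, adjusted p = 0.161). Cd226 was at 99.6 and 95.7 CPM in WT against 38.2 and 64.9 CPM in DKO, also without overlap (-0.92, SE 0.40, adjusted p = 0.217). Cd274 was at 87.8 and 99.5 CPM in WT against 62.2 and 64.6 CPM in DKO (-0.56, SE 0.15, adjusted p = 0.0787). These 3 genes had the same sign in both tissues, and in both the DKO libraries lay below the WT ones. None of them was called in SpLN, and the share of all genes that lay apart in this way was not counted.

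Havcr2 had the largest difference among the 9 genes in SpLN Treg cells, at 1.46 and 2.92 CPM in WT against 12.5 and 5.73 CPM in DKO (2.05, SE 0.48, adjusted p = 0.0541). Leaving out 1 library moved it from 1.38 (without DKO Treg replicate 1, adjusted p = 0.557) to 2.64 (without WT Treg replicate 2, adjusted p = 0.398), and without DKO Treg replicate 2 it was called (2.50, adjusted p = 0.0195). Btla was at 154 and 126 CPM in WT against 209.8 and 204 CPM in DKO (0.57, SE 0.19, adjusted p = 0.129). Both DKO libraries were above both WT libraries for Btla and for Havcr2. Tigit (216 and 183 CPM in WT, 297 and 229 in DKO) and Lag3 (146 and 143 CPM in WT, 193 and 159 in DKO) were also above, by 0.40 and 0.29, within 1 SE of 0. Cd200 and Pdcd1lg2 overlapped, at -0.10 and 0.06.

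In SpLN CD4+Foxp3- cells 0 of the 9 genes were called by edgeR, where 0.77% of all genes were called higher and 0.0489% lower, with 6 of the 9 and 12.9% of all genes at an unadjusted p under 0.05 and 1 called by DESeq2 (Cd200, adjusted p = 0.0111). The 2 DKO libraries disagreed. Lag3 was at 124 and 111 CPM in WT against 896 and 149 CPM in DKO (2.15, SE 0.55, adjusted p = 0.0957), and Tigit at 69.4 and 52.6 CPM in WT against 220.0 and 49.2 CPM in DKO (1.14, SE 0.47, adjusted p = 0.321). Cd200 was at 85.6 and 61.0 CPM in WT against 271 and 117 CPM in DKO (1.41, SE 0.33, adjusted p = 0.0744). Cd96 was at 263 and 261 CPM in WT against 78.5 and 222 CPM in DKO, and Cd226 at 119.6 and 101 against 38.0 and 123. In each case replicate 1 of the DKO cells was the library farther from WT. Without it the log2 differences were 0.34 for Lag3, -0.31 for Tigit, 0.68 for Cd200 (adjusted p = 0.473), -0.25 for Cd96 and 0.15 for Cd226, and without replicate 2 they were 2.93, 1.85, 1.89, -1.74 and -1.54.

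With replicate 1 of these DKO cells as the only DKO library, 7 of the 9 genes were called, 5 higher and 2 lower, where 9.62% of all genes were called higher and 7.28% lower, and with replicate 2 alone 0 were, where 0.516% of all genes were called. In those fits the lone library is assumed to vary like the other groups. The monocyte and macrophage markers summed to 10.6 to 12.3 CPM in WT against 28.6 to 58.0 CPM in DKO CD4+Foxp3- cells of SpLN, and to 4.53 to 8.56 and 16.8 to 41.8 CPM in Treg cells. The NK sums were 81.1 to 129 against 132 to 223 CPM in CD4+Foxp3- cells and 10.6 to 11.2 against 96.8 to 136 CPM in Treg cells, and the CD8 sums 14.8 to 17.8 against 5.09 to 11.3 and 17.2 to 19.7 against 6.70 to 9.42 CPM. The B cell sums were 14.1 to 17.1 against 25.1 to 45.2 CPM in CD4+Foxp3- cells and 34.4 to 38.6 against 22.0 to 60.6 CPM in Treg cells, and the dendritic cell sums 3.94 to 4.03 against 11.2 to 14.8 and 3.48 to 4.46 against 4.64 to 8.76 CPM. Replicate 1 of the DKO CD4+Foxp3- cells also had the higher sum of Treg markers (707 CPM, with 226 in replicate 2 and 199 to 220 in WT) and of plasma cell markers (327 CPM, with 127 in replicate 2 and 87.6 to 93.4 in WT). Ctla4 had the highest mean of the Treg markers in these DKO cells (50.4 to 344 CPM). The part of these genes in the levels of the 9 was not tested.

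Between the cell types of SpLN, Cd274 was called in WT (87.8 and 99.5 CPM in its Treg cells against 57.7 and 64.1 CPM in its CD4+Foxp3- cells), 1.54-fold higher in Treg cells (0.62, SE 0.15, adjusted p = 0.0429), 1 of 9 genes where 2.48% of all genes were called higher and 1.52% lower. This call was lost under filterByExpr (adjusted p = 0.0598), with the replicate number as a block (adjusted p = 0.0602) and whenever a replicate was left out. Tigit (1.71, SE 0.47, adjusted p = 0.0743) and Pdcd1lg2 (1.27, SE 0.35, adjusted p = 0.0676) were higher in both Treg libraries without a call by edgeR, while DESeq2's Wald test called Pdcd1lg2 too (1.27, adjusted p = 0.0395). In DKO mice Havcr2 was called, at 12.5 and 5.73 CPM in Treg cells and 1.38 and 1.19 CPM in CD4+Foxp3- cells (2.82, SE 0.50, adjusted p = 0.00679), again 1 of 9 genes where 2.16% of all genes were called higher and 1.61% lower, and without DKO Treg replicate 1 this was 2.14 (adjusted p = 0.142), and with the block 2.75 (adjusted p = 0.0567). Beside Havcr2, Tigit (2.42), Pdcd1lg2 (1.25) and Cd226 (-1.26) were called in DKO mice without DKO CD4+Foxp3- replicate 1, where 5.89% of all genes were called higher and 3.96% lower. Without replicate 2 these were Cd96 (1.07), Lag3 (-2.35) and Cd200 (-1.45), where 4.21% were called higher and 3.85% lower. For the interaction in SpLN 0 of the 9 genes passed with edgeR and with DESeq2, 3 of the 9 and 5.53% of all genes had an unadjusted p under 0.05, and 0.00611% of all genes passed. Without DKO CD4+Foxp3- replicate 2, 4 of the 9 passed, Lag3 (-2.64), Tigit (-1.45), Cd200 (-1.99) and Pdcd1lg2 (-1.44), where 4.14% of all genes did.

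Related genes were followed as lists of binding partners, other inhibitory receptors, co-stimulatory receptors, B7 family ligands, intracellular transducers and transcription factors. Of 13 measured binding partners of the 9 genes (Fgl1 was not in the table), 5 were called higher and 1 lower in mLN DKO Treg cells, where 8.5% of all genes were called higher and 3.43% lower, with a median log2 difference of 0.26. Pdcd1, the receptor of PD-L1 and PD-L2, was at 101, 94.8 and 79.7 CPM in WT Treg cells and at 295, 256 and 302 CPM in DKO, without overlap, and rose by 1.63 (SE 0.28, adjusted p = 0.00188). Lgals3, which codes for galectin-3 (2.88, SE 0.63, adjusted p = 0.00697), Ceacam1, a partner of TIM-3 (2.80, SE 0.58, adjusted p = 0.00537), and Pvrl2, a nectin ligand (2.72, SE 0.53, adjusted p = 0.00356), rose as well. Lgals3 is also a gene of macrophages, whose marker sums are given above. Tnfrsf14, the gene of HVEM (0.60), was the fifth that rose and Lgals9, the gene of galectin-9 (-0.75), the one that fell, both named after their values were seen.

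Of 9 other inhibitory receptors, 4 were called higher and 2 lower in mLN DKO Treg cells, against 8.5% and 3.43% of all genes. Pdcd1 and Ceacam1, both counted among the binding partners already, Cd160, another receptor of HVEM (1.85, SE 0.51, adjusted p = 0.0233), and Cd244 were higher. Cd244 was at 0 in all 3 WT libraries and at 0.229, 0.791 and 4.28 CPM in DKO, so no fold is given. Cd101 (-1.55) and Cd5 (-0.86), named after their values were seen, fell. In mLN CD4+Foxp3- cells, where 3.12% of all genes were called higher and 0.304% lower, 2 of the 9 were called higher, Ctla4 (1.89, SE 0.33, adjusted p = 0.00979) and Pdcd1 (1.62, SE 0.29, adjusted p = 0.0112), and Cd101 was called lower (-0.75, SE 0.15, adjusted p = 0.0171). Of the 13 binding partners there, 3 were called higher and 0 lower, namely Pdcd1, Lgals3 (2.91, SE 0.66, adjusted p = 0.0304) and Pvrl2 (3.37, SE 0.75, adjusted p = 0.0265).

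Of 8 co-stimulatory receptors, 2 were called higher and 1 lower in mLN DKO Treg cells, against 8.5% and 3.43% of all genes. Crtam (3.41, SE 0.65, adjusted p = 0.00321), itself a receptor of a nectin-like protein, and Icos (1.21, SE 0.38, adjusted p = 0.0409) rose, and Slamf1 fell by 1.36 (SE 0.15, adjusted p = 0.000130). In CD4+Foxp3- cells 1 of the 8 was called higher, Icos (2.04, SE 0.39, adjusted p = 0.0153), and 0 lower. Of all genes 3.12% were called higher there and 0.304% lower. Of 5 other B7 family ligands (Vtcn1 was not in the table), edgeR and DESeq2 called 0 between genotypes in either cell type of mLN. At an unadjusted p under 0.05 there was 1 in Treg cells, where 32.4% of all genes were, and 0 in CD4+Foxp3- cells, where 18.7% were. Of 8 intracellular transducers of inhibition, 0 were called higher and Pag1 was called lower (-1.25, SE 0.40, adjusted p = 0.0440) in Treg cells. In CD4+Foxp3- cells edgeR and DESeq2 called 0 of the transducers, where edgeR called 3.12% of all genes higher and 0.304% lower. At an unadjusted p under 0.05 there was 1 of the 8, and 18.7% of all genes.

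Of 13 genes of transcription factors and a cytokine receptor linked to co-inhibitory receptor expression, 3 were called higher and 1 lower in mLN DKO Treg cells, again against 8.5% and 3.43% of all genes. Nr4a2 (1.85, SE 0.34, adjusted p = 0.00244), Batf (0.98, SE 0.17, adjusted p = 0.00207) and Tox (0.74, SE 0.22, adjusted p = 0.0349) rose, and Prdm1, which codes for Blimp-1, fell by 1.33 (SE 0.31, adjusted p = 0.00920). In CD4+Foxp3- cells, with 3.12% of all genes called higher, the 3 called higher were others, Nfil3 (2.19, SE 0.46, adjusted p = 0.0215), Maf (1.55, SE 0.39, adjusted p = 0.0451) and Irf4 (0.95, SE 0.23, adjusted p = 0.0403). Between the cell types of WT mice in mLN, 5 of the 13 were called higher in Treg cells, led by Nfil3 (2.64), Prdm1 (2.06) and Maf (2.04), and 1, Eomes (-2.99), lower, where 6.91% of all genes were called higher and 3.14% lower. The list medians in the 2 genotype comparisons were 0.06 and 0.53.

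The list genes called in mLN CD4+Foxp3- cells were also fitted without DKO replicate 2, an alternative chosen after seeing the data. Ctla4 (1.46, adjusted p = 0.00663), Pdcd1 (1.18, adjusted p = 0.00516), Icos (1.26, adjusted p = 0.00417), Nfil3 (1.41, adjusted p = 0.0272), Lgals3 (2.93, adjusted p = 0.0342) and Cd101 (-0.76, adjusted p = 0.0262) were still called. Pvrl2 (3.04, adjusted p = 0.0639), Maf (0.97, adjusted p = 0.117) and Irf4 (0.70, adjusted p = 0.0967) were not.

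**Figure D5:**
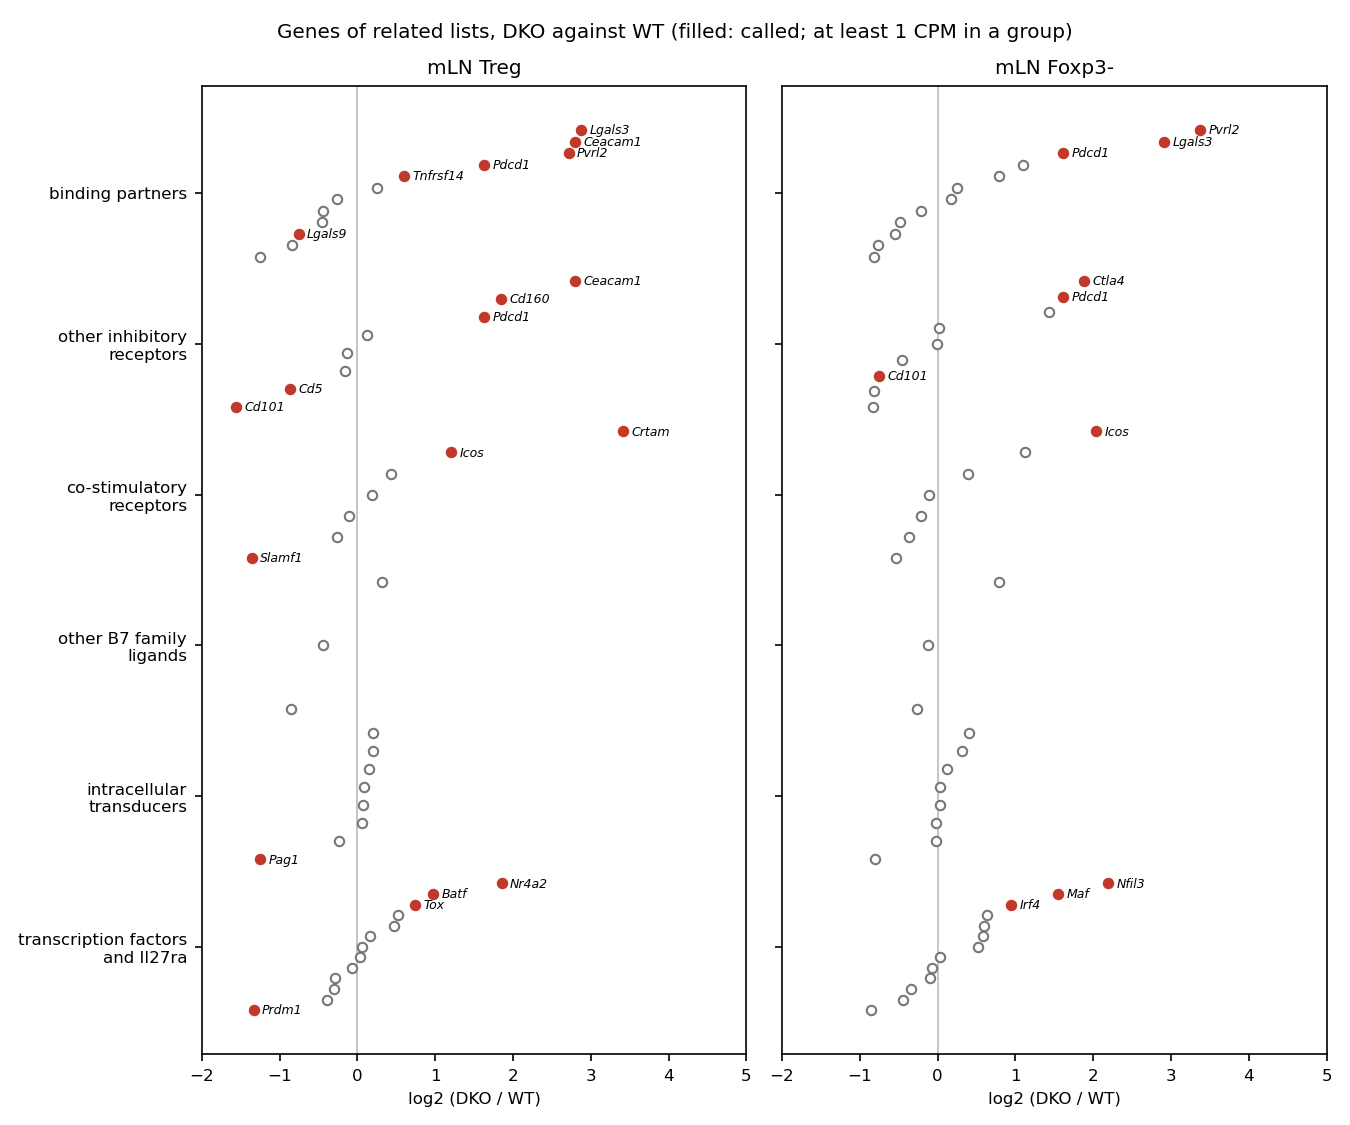
Log2 fold change of DKO against WT in mLN Treg cells (left) and mLN CD4+Foxp3- cells (right) for the measured genes of the 6 lists that averaged 1 CPM or more in a group, filled and named where called. Genes at 0 in all 3 libraries of a compared group, such as Cd244 in WT Treg cells, are left out; Lgals3, Ceacam1, Pvrl2, Pdcd1 and Crtam stand to the right in Treg cells and Pvrl2, Lgals3, Nfil3, Icos, Ctla4 and Pdcd1 in CD4+Foxp3- cells.

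In SpLN fewer genes of these lists were called, as were fewer of all genes (285 against 2001 in Treg cells and 134 against 575 in CD4+Foxp3- cells). In DKO Treg cells Ceacam1 rose by 3.64 (SE 0.70, adjusted p = 0.0276) and Slamf1 fell by 0.99 (SE 0.17, adjusted p = 0.0143), the same signs as in mLN. Between genotypes 0 genes of the 6 lists were called in CD4+Foxp3- cells by edgeR, with 0 to 5 genes a list at an unadjusted p under 0.05, as 12.9% of all genes were, while DESeq2 called 1 other inhibitory receptor and 1 transcription factor or cytokine receptor gene. Between the cell types of WT mice, Ctla4 (2.83, SE 0.59, adjusted p = 0.0175) was higher in SpLN Treg cells and Lair1 lower (-2.23, SE 0.39, adjusted p = 0.00580), as they were in mLN, at 3.87 (SE 0.35, adjusted p = 1.25e-05) and -2.18 (SE 0.33, adjusted p = 0.000716).

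The genes of the mLN table whose pattern over the 12 libraries was most like each member were found by the root mean square (RMS) difference of centred log2 CPM among 8410 genes that averaged 10 CPM or more. The libraries share their groups, so likeness here is a description. Cd96 was most like Abcg3 (RMS 0.14) and Sipa1l2 (0.18), Cd226 most like Dtx4 (0.21) and then Cd96 (0.22), and Btla most like Wdr12 (0.15) and Evi2a (0.17). Lag3 was most like Ptpn13 (0.27) and Cd38 (0.36), Tigit most like Tnfrsf4 (0.33), the gene of OX40, and Tmbim1 (0.38), and Cd200 most like Plekho1 (0.36) and Decr1 (0.38). Pdcd1lg2 was most like Ccdc109b and Gnaq (both 0.28), while Havcr2, the least abundant, had no close match (Fam160a1 at 0.87 and Il1r2 at 0.92). The group means of Cd274 spanned 1.65-fold, below the 2-fold set for this search.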

How the data were processed

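RNA from 20 sorted samples was sequenced as stranded, single-end mRNA libraries. Per the labels and methods, the authors aligned the reads to mm9 with TopHat2 2.1.1, keeping 1 alignment a read, and counted them strand-specifically on RefSeq genes with featureCounts (Subread 1.4.3-p1). The deposited counts are raw. How the authors computed the deposited TPM is not given in the sources used here. Columns were matched to samples by their names, and 0 columns were left without a sample.

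Counts were scaled by TMM and tested with edgeR 4.0.16 (R 4.3.3, limma 3.58.1) by glmQLFit and glmQLFTest, with the 4 groups of a tissue in 1 fit, on the 16357 (SpLN) and 16784 (mLN) genes with at least 1 count. The biological coefficients of variation, 21.6% and 17.7%, are the common estimate of the spread between replicates over the 4 groups. They do not measure the precision that 2 or 3 replicates give. The steps were tested on simulated data. The simulation gave all groups the same spread and no pairing, so it does not cover the wider spread of the DKO libraries. Alternatives were DESeq2 size factors, the Wald test of DESeq2 1.42.0, filterByExpr, a robust prior, a replicate block, and fits that each left out 1 replicate. The replicates are called biological by the study. In mLN, Treg and CD4+Foxp3- libraries of the same number and genotype deviated together from their group means in all 3 pairs. Their r was 0.171 to 0.183 in WT and 0.110 to 0.390 in DKO. Pairs of unlike number reached at most -0.0619 in WT. In DKO, Treg replicate 3 with CD4+Foxp3- replicate 1 reached 0.160, above the 0.110 of the pair numbered 1. The numbers in the labels were taken to pair the mLN libraries, less clearly so in DKO. In SpLN, whose DKO cells of both types came from the same 2 littermates, such libraries also deviated together (r 0.213 in WT, 0.336 in DKO). Same-numbered SpLN libraries of unlike genotype, which cannot share a mouse, did so too (r 0.155 to 0.221). The sources do not say that a number marks a mouse, and there are only 2 pairs. The pairing in SpLN stays unsettled, and blocked values are given where they change a call.

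The 9 genes and the lists were chosen with earlier results of these data known. Genes of the lists are named where called, at most 4 a list and comparison by size of change, if the higher group averaged 1 CPM or more. Coordinates come from GENCODE M1 on NCBIM37 (mm9), promoters from RefSeq on GRCm38.p6, whose table held 7 of the 9 genes. Lag3 and Cd226 were not among them.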

Additional observations from a re-analysis of the deposited data

Results flagged for a closer look

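Cd200 in SpLN moved in opposite directions between the cell types of the 2 genotypes. In WT mice both Treg libraries (115 and 97.9 CPM) were above both CD4+Foxp3- libraries (85.6 and 61.0 CPM), and in DKO mice both Treg libraries (81.2 and 116.9 CPM) were below both CD4+Foxp3- libraries (271 and 117.4 CPM), the nearest of them by under 1 CPM. The interaction of genotype and cell type was -1.51 on the log2 scale (SE 0.45, edgeR adjusted p = 0.858), so the difference was tested and did not pass. Without DKO CD4+Foxp3- replicate 1 it was -0.78 (edgeR adjusted p = 0.545), and without replicate 2 it was -1.99 and passed (edgeR adjusted p = 0.00157), with the lone library assumed to vary like the other groups.

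Cd226 in WT mice was at 99.6 and 95.7 CPM in SpLN Treg cells against 119.6 and 101 CPM in SpLN CD4+Foxp3- cells (log2 -0.18, SE 0.40, edgeR adjusted p = 0.951). In mLN it was at 86.4, 85.2 and 78.3 against 54.6, 56.7 and 56.6 CPM (log2 0.57, SE 0.34, edgeR adjusted p = 0.318). Neither difference was called. With the replicate number as a block, the mLN difference had an adjusted p of 0.0152 in edgeR but stayed below 1.5-fold (0.57, SE 0.13). The libraries of the cell types did not overlap in either tissue and lay in opposite orders, but the difference between the tissues was not tested, since their tables were fitted separately.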

How the results depend on the processing

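Over all alternatives, 885 values of the 9 genes kept their direction and side of the threshold, 42 lost a call, 37 gained one and 26 changed sign, and of the counts 140 stayed within 1.5 times, 49 became smaller and 31 larger. The cause of each change was not tested, apart from there being fewer samples or fewer genes. Genes called in SpLN depended on the method. For DKO against WT Treg cells there were 285 with edgeR, 648 with DESeq2 (1 of the 9 genes), 24 with filterByExpr and 114 with the robust prior, and leaving out replicates gave 4 to 1696 genes and 0 to 1 of the 9. For DKO against WT CD4+Foxp3- cells there were 134, 376 (1 of the 9), 1 and 19 in the same order, and 1 to 2751 genes and 0 to 7 of the 9 by leaving out replicates. For Treg against CD4+Foxp3- cells in WT there were 654 genes, 379 with filterByExpr and 360 with the replicate block (0 of the 9 in both, 2 with DESeq2), and 144 to 198 genes and 0 of the 9 by leaving out replicates. In DKO there were 617, 342 with filterByExpr and 348 with the block (0 of the 9), and 185 to 1586 genes and 0 to 4 of the 9. For the SpLN interaction there was 1 gene, with 2 under DESeq2 size factors, 11 under DESeq2, 0 under filterByExpr and under the block, and 3 under the robust prior, and leaving out replicates gave 0 to 674 genes and 0 to 4 of the 9.

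In mLN, DKO against WT Treg cells gave 4 of the 9 genes, 2 with the robust prior and 2 to 4 by leaving out replicates, with 1325 to 1946 genes in all against 2001. DKO against WT CD4+Foxp3- cells gave 575 genes, 929 with DESeq2, 323 with the robust prior (0 of the 9) and 57 to 1453 by leaving out replicates (0 to 6 of the 9). Treg against CD4+Foxp3- cells gave 4 of the 9 in WT in every alternative run but the replicate block, which gave 5, and in DKO 2 to 6 of the 9 and 1520 to 2934 genes by leaving out replicates. The mLN interaction gave 47 genes, 409 with DESeq2, 118 with the replicate block within genotype (1 of the 9), and 9 to 462 genes and 0 to 3 of the 9 by leaving out replicates. With that block the interaction of Btla in mLN turned from -0.050 to 0.070 and that of Cd96 in SpLN from -0.10 to 0.066, both without a call. Between genotypes (r -0.017 to 0.114 for same-numbered mLN samples of the same cell type) the numbers did not pair the samples, and the block cost the call of Pdcd1lg2 in mLN CD4+Foxp3- cells (adjusted p = 0.0617). The block also changed the calls of Cd274 and Havcr2 between SpLN cell types and of Cd200 between mLN cell types, and let Cd274 pass the mLN interaction, all given above. It changed no other call of the 9 genes.

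Leaving out 1 replicate changed the sign of values that were not called. In SpLN, DKO against WT ranged from -0.39 to 0.14 for Cd200 and -0.040 to 0.16 for Pdcd1lg2 in Treg cells, and from -0.31 to 1.85 for Tigit and -1.54 to 0.15 for Cd226 in CD4+Foxp3- cells. Treg against CD4+Foxp3- cells of SpLN DKO mice ranged from -2.35 to 0.24 for Lag3, -0.43 to 1.07 for Cd96, -1.26 to 0.43 for Cd226, -0.46 to 0.019 for Btla and -0.17 to 1.25 for Pdcd1lg2. The SpLN interaction ranged from -1.45 to 0.71 for Tigit, -0.67 to 0.83 for Cd96, -1.08 to 0.61 for Cd226 and -0.19 to 0.30 for Btla. In mLN DKO mice Treg against CD4+Foxp3- cells ranged from -0.68 to 0.17 for Cd96, -1.20 to 0.10 for Cd200, -0.75 to 0.046 for Btla and -0.20 to 0.054 for Cd274, and the mLN interaction from -0.31 to 0.49 for Btla. Havcr2 had the fewest reads, 1 to 21 a library in mLN CD4+Foxp3- cells and 10 to 22 in SpLN, against a floor of 3, and the parts of depth and of replicate spread in its error were not separated. Where a group of SpLN was left with 1 library, that library was assumed to vary like the other groups.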
